A study of Mus musculus with 14 samples.

Results

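The genes described here are 30 genes by which astrocytes are commonly recognised, followed in cultures of mouse hippocampus with and without picrotoxin. They were given as a list of symbols, and all 30 matched 1 identifier among the 43629 genes of the count tables. By textbook role, 20 are genes of resting, homeostatic astrocytes, 3 are genes of glial progenitors (Fabp7, Id3 and Id4), 5 are genes that astrocytes raise when they become reactive (Lcn2, Serpina3n, Cp, Cd44 and Steap4) and 2 are metabolic genes (Aldh1a1 and Ppp1r3c). The 8 RNA-seq libraries came from wild type C57BL6 primary hippocampal cultures, started from pups of postnatal day 0 to 1 and grown for 14 days in medium with B27 supplement. Of these, 4 cultures received the solvent DMSO at 0.1% (CTRL) and 4 received 100 µM picrotoxin (PTX), each for 15 h. Picrotoxin is a channel blocker of GABA-A receptors and raises network firing by taking inhibition away. A separate ChIP-seq experiment on untreated hippocampus of C57BL6/129 mice at postnatal day 7 to 8, with 3 wild type and 3 L3mbtl1-/- samples, gave 1 list of peaks for the chromatin reader L3mbtl1.

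Astrocytes buffer the fluid around synapses. They take up potassium, carry water and bicarbonate across their membranes, share ions and metabolites through gap junctions, and store glycogen that can be broken down to lactate for neurons. Injury and cytokine signals switch on a reactive programme in which some secreted and adhesion genes rise.

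The cultures were a mixture of cell types, and their RNA was measured in bulk, so fewer cells of a type and less RNA per cell cannot be told apart. Gene counts per library ran from 14524916 to 19498189. Levels are given as CPM, reads of a gene per unit of library size after TMM scaling, and are compared between libraries and not between genes of different length. All 30 members had reads in every library, but which cells they came from was not tested. Slc7a10, encoding a small amino acid transporter, and Gjb6, encoding connexin 30, both genes of mature astrocytes, lay near the limit of detection, with 68 and 83 reads summed over the 4 CTRL libraries. The libraries numbered 1 stood apart in both groups. Summed over 9 markers, the meningeal fibroblast level reached 760.8 CPM for CTRL 1 and 681.4 CPM for PTX 1, against 185.9 to 278.9 CPM elsewhere. The summed level of 12 microglia markers was 53.2 and 56.9 CPM in those libraries and 124.4 to 272.8 CPM in the others. The sum of 6 ependymal and choroid plexus markers was 504.5 to 668.3 CPM in the libraries numbered 1 and 4 of both groups. It was 72.0 to 93.3 CPM in those numbered 2 and 3. Much of this sum came from 1 gene, Ttr, whose mean was 282.7 CPM (SD 321.9) without picrotoxin and 242.0 CPM (SD 277.4) with it. Foxj1, the next highest of the 5 tested, had means of 48.4 ± 21.5 and 36.2 ± 17.6 CPM in the same order (SD, n = 4 each). No marker of these lists was at 0 in every library. By edgeR without pairing none of 11 tested microglia markers, none of 5 oligodendrocyte markers and none of 5 ependymal and choroid plexus markers was called (0 at an unadjusted p under 0.05 and 0 with DESeq2 in each list), and 1 of 9 meningeal markers, Fn1, rose. With the replicate block 2 microglia and 3 oligodendrocyte markers rose, 4 meningeal markers fell and 1 rose, and 3 ependymal and choroid plexus markers fell and 1 rose. In that fit 53.8% of all genes were called, 25.1% as higher and 28.7% as lower. Of 11 neuronal markers 5 rose and 4 fell (81.8% called, against 39.2% of all tested genes), and 5 rose and 6 fell with the replicate block. Summed, they reached 5077 to 6568 CPM in the CTRL libraries and 8078 to 11030 CPM in the PTX libraries, of which the neurofilament gene Nefl alone gave 319 ± 119 and 3318 ± 778 CPM (SD, n = 4 each). Summed over 8 endothelial and mural markers, the level was 80.4, 171.8, 191.7 and 242.5 CPM across CTRL 1 to 4 and 65.9, 118.4, 123.5 and 170.3 CPM across PTX 1 to 4, lower in PTX in every pair. Of the 6 of these markers tested, Flt1 rose 2.76-fold, and Slco1a4 and Kdr fell with the replicate block alone. Their log2 fold changes with the block were -0.89 (edgeR adjusted p = 6.71e-08, against 0.169 without it) and -0.24 (0.0419, against 0.596). Pecam1, Rgs5 and Pdgfrb passed in neither fit, with log2 fold changes without the block of 0.43, -0.08 and -0.02. The part of these mixtures in the results below was not tested.

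**Figure D1:**
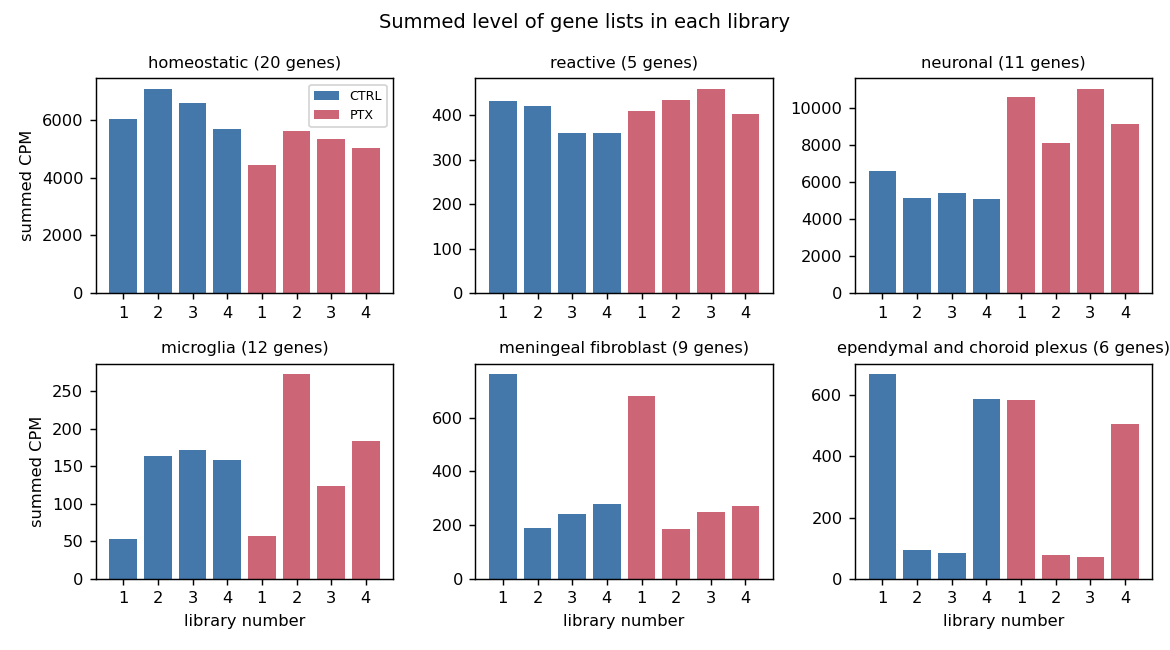
Summed CPM of 6 gene lists in each of the 8 libraries, with CTRL in blue and PTX in red and the library number on the x axis. The homeostatic astrocyte sum was 5706 to 7087 CPM in CTRL and 4450 to 5611 CPM in PTX, while the meningeal fibroblast sum was high in both libraries numbered 1 and the ependymal and choroid plexus sum in those numbered 1 and 4.

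More of the astrocyte genes were lower than higher in the picrotoxin libraries. Of the 30 genes, 10 fell and 4 rose (edgeR quasi-likelihood test, adjusted p under 0.05 over all 15959 tested genes), and 16 did not pass. Over all tested genes 39.2% were called, 20.1% as lower and 19.0% as higher, so the members' 46.7% is close to the general share, with 33.3% lower and 13.3% higher. The median log2 fold change was -0.30 for the members and -0.03 over all tested genes, and the members' median was -0.16 without PTX 1 and -0.17 without PTX 4. Of 20 homeostatic genes 6 fell (Aldoc, Aqp4, Hepacam, Slc14a1, Slc4a4 and Atp1b2) and 1 rose (Fgfr3), with a median of -0.30 that was -0.14 without PTX 1 and -0.17 without PTX 4. Of 5 reactive genes 2 rose (Cd44 and Lcn2) and 1 fell (Steap4), with changes from -1.54 to 1.66. Their median of -0.18 had no stable sign, ranging from -0.27 without CTRL 3 to 0.04 without CTRL 1. A gene that missed the threshold is not thereby shown to be equal in both groups.

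With same-numbered libraries treated as pairs, 16 of the 30 genes fell and 5 rose, against 28.7% and 25.1% of all genes in that fit (53.8% in all). The homeostatic count went from 7 called to 12, of which 11 fell. Of the 30 genes, 16 were lower in PTX in 4 of 4 pairs and 5 were higher in 4 of 4. The share of all tested genes with such pairs was not counted. In 10 genes the CTRL and PTX levels did not overlap (38.0% of all tested genes), 7 of them lower in PTX and 3 higher.

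**Figure D2:**
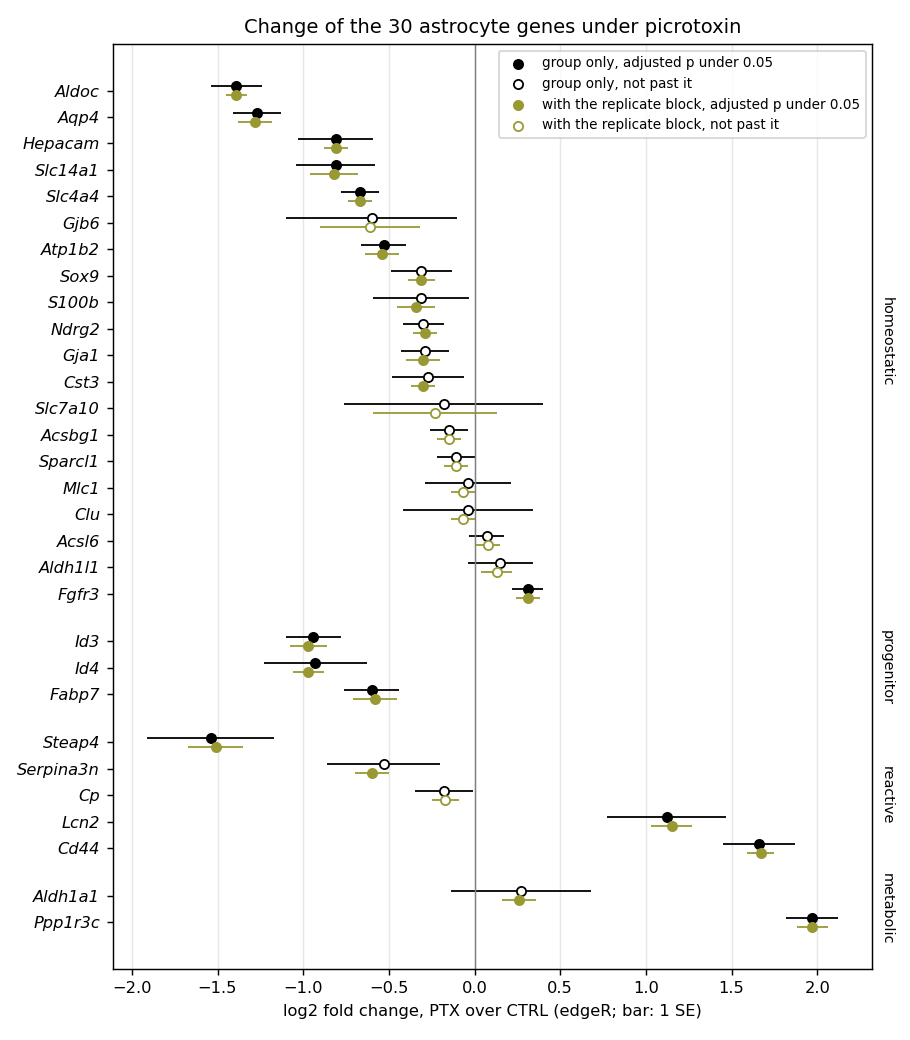
Log2 fold change of PTX over CTRL for each of the 30 genes, with bars of 1 SE, from edgeR with group alone (black) and with the replicate number as a block (olive); filled points have an adjusted p under 0.05. Aldoc and Aqp4 lie lowest among the homeostatic genes, at -1.39 and -1.27, and the reactive genes spread from Steap4 at -1.54 to Cd44 at 1.66.

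Among the 20 homeostatic genes, those of 3 channel, transporter and pump proteins fell without overlap between groups. Aqp4 (ENSMUSG00000024411, mm10 chromosome 18, 15389394 to 15410982) encodes aquaporin 4, the water channel of perivascular endfeet. It stood at 878, 916, 855 and 678 CPM in CTRL 1 to 4 and 265, 402, 368 and 340 CPM in PTX 1 to 4. Every PTX library lay below every CTRL library, and the lowest was PTX 1. Aqp4 fell 2.42-fold (log2 fold change -1.27, SE 0.14, edgeR adjusted p = 8.44e-05). Slc4a4 (ENSMUSG00000060961, chromosome 5, 88793858 to 89239656), encoding the sodium bicarbonate cotransporter NBCe1, stood at 327, 263, 305 and 267 CPM in CTRL and 188, 159, 213 and 173 CPM in PTX. The groups again did not overlap, and Slc4a4 fell 1.59-fold (SE 0.11 on the log2 scale, edgeR adjusted p = 0.00105). Atp1b2, encoding the beta 2 subunit of the sodium pump, was at 20.0, 22.8, 26.7 and 23.3 CPM in CTRL and 15.1, 14.1, 15.4 and 19.6 CPM in PTX. Its highest PTX library, numbered 4, lay just under its lowest CTRL library, and it fell 1.45-fold (edgeR adjusted p = 0.00903).

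Hepacam encodes GlialCAM, an adhesion protein that brings Mlc1 and connexins to astrocyte junctions, and Mlc1 encodes a membrane protein of the same complex. Hepacam went from 35.6, 46.1, 56.6 and 65.8 CPM in CTRL to 19.8, 28.4, 30.8 and 37.7 CPM in PTX. The groups overlapped, since PTX 4 lay above CTRL 1, yet the change within pairs was even, from -0.70 to -0.88 on the log2 scale. It fell 1.75-fold (edgeR adjusted p = 0.0149, and 4.42e-07 with the replicate block). Mlc1 did not pass, with 255, 431, 427 and 445 CPM in CTRL and 218, 397, 384 and 511 CPM in PTX (log2 fold change -0.04, SE 0.25, edgeR adjusted p = 0.908). In both groups the library numbered 1 was the lowest for Mlc1. Slc14a1, encoding the urea transporter UT-B, fell 1.75-fold from 7.57 ± 1.26 CPM to 4.32 ± 1.3 CPM (SD, n = 4 each, with 4 of 4 pairs lower, edgeR adjusted p = 0.0179). That call was lost without CTRL 3, PTX 1 or PTX 4, with an adjusted p of up to 0.068.

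The gap junction genes and the amino acid transporter gave no call without pairing. Gja1 (ENSMUSG00000050953, chromosome 10, 56377300 to 56390419) encodes connexin 43, the main connexin of astrocytes. It stood at 234, 312, 300 and 236 CPM in CTRL and 182, 214, 213 and 272 CPM in PTX. It was lower in PTX in 3 of 4 pairs and higher in the pair numbered 4, and its log2 fold change of -0.29 (SE 0.14) had an edgeR adjusted p of 0.13, and of 0.0226 with the replicate block. Gjb6 averaged 1.17 ± 0.53 CPM without picrotoxin and 0.78 ± 0.48 CPM with it (SD, n = 4 each, edgeR adjusted p = 0.387). Slc7a10 had 0.93 ± 0.44 and 0.83 ± 0.66 CPM (edgeR adjusted p = 0.836), and it overlaps Lrp3 in the annotation.

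**Figure D3:**
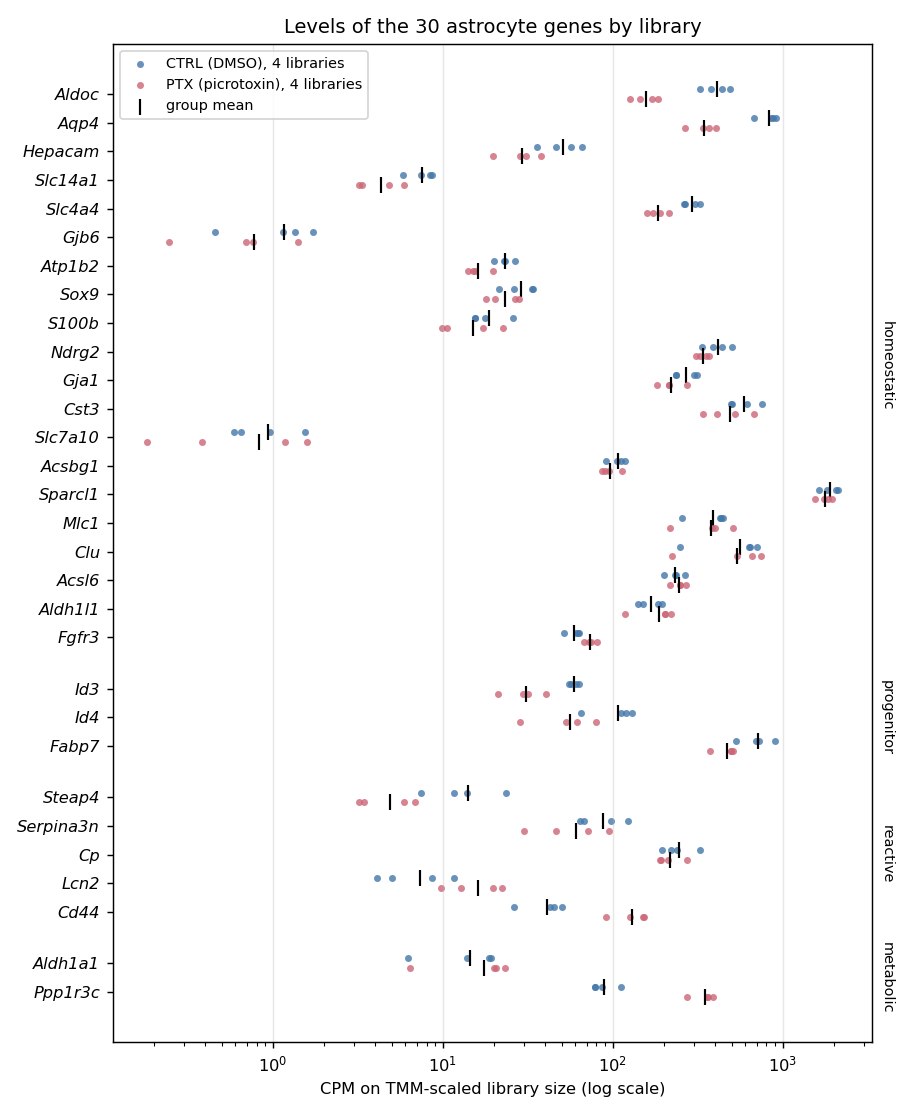
Level of each of the 30 genes in every library, in CPM on a log scale, with CTRL in blue, PTX in red and black ticks at the group means. Aldoc, Aqp4, Slc4a4, Atp1b2, Fabp7, Id3 and Steap4 have all PTX libraries below all CTRL libraries, and Fgfr3, Cd44 and Ppp1r3c have them above.

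Among the enzymes, the glycolytic Aldoc and the folate enzyme Aldh1l1 parted. Aldoc (ENSMUSG00000017390, chromosome 11, 78323073 to 78327781) encodes aldolase C, the aldolase of brain. It stood at 490, 379, 439 and 327 CPM in CTRL and 185, 144, 169 and 125 CPM in PTX. The groups lay far apart, and the 4 pairs gave nearly the same change, -1.41, -1.40, -1.38 and -1.38 on the log2 scale. Aldoc fell 2.62-fold (SE 0.15 on the log2 scale, edgeR adjusted p = 8.26e-05). Aldh1l1, a pan-astrocyte marker that encodes 10-formyltetrahydrofolate dehydrogenase, was at 140, 183, 194 and 151 CPM in CTRL and 117, 220, 202 and 203 CPM in PTX. Of its 4 pairs 3 were higher in PTX, and it did not pass (log2 fold change 0.15, SE 0.19, edgeR adjusted p = 0.567). Without PTX 1 it passed as higher, with an adjusted p of 0.0388. The acyl-CoA synthetase genes Acsl6 and Acsbg1, which activate long fatty acids, gave log2 fold changes of 0.07 (SE 0.10) and -0.15 (SE 0.11) and did not pass (edgeR adjusted p = 0.61 and 0.315).

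Genes of secreted and calcium-binding proteins showed small differences. Sparcl1, encoding hevin, which helps synapses form, averaged 1905 ± 218 CPM without and 1769 ± 168 CPM with picrotoxin (SD, n = 4 each, edgeR adjusted p = 0.491). Clu, encoding the lipid-binding chaperone clusterin, was at 248, 707, 631 and 637 CPM in CTRL and 224, 740, 534 and 660 CPM in PTX. In both groups the library numbered 1 was far under the other 3, and 2 of 4 pairs were higher (log2 fold change -0.04, SE 0.38, edgeR adjusted p = 0.945). Cst3, encoding the protease inhibitor cystatin C, which microglia also make, and S100b, encoding a calcium-binding protein that oligodendrocytes also make, were lower in PTX in 4 of 4 pairs. Their log2 fold changes were -0.27 (SE 0.21) and -0.31 (SE 0.28), with edgeR adjusted p of 0.349 and 0.422, and they passed with the replicate block alone (0.00323 and 0.0176). Ndrg2, a cytoplasmic protein gene of differentiated astrocytes, gave -0.30 (SE 0.12, edgeR adjusted p = 0.0867, and 0.00256 with the block).

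Fgfr3 was the 1 homeostatic gene to rise. It encodes a receptor for fibroblast growth factors that is expressed in astrocytes and their progenitors. Fgfr3 (ENSMUSG00000054252, chromosome 5, 33721724 to 33737068) was at 51.7, 60.3, 62.1 and 63.2 CPM in CTRL and 67.2, 72.6, 80.1 and 74.3 CPM in PTX. Each PTX library exceeded each CTRL library, by a modest 1.24-fold (SE 0.09 on the log2 scale, edgeR adjusted p = 0.0208), and the call was lost without CTRL 2 (adjusted p = 0.0552). Around it, 14 of 15 genes of FGF signalling were called (93.3%, against 39.2% of all genes), 11 higher and 3 lower. Their median log2 change was 0.73, and 11 to 14 were called with libraries left out. Spry2, Spry4 and Dusp6, feedback inhibitors of the ERK pathway, rose 2.88-fold (edgeR adjusted p = 8.01e-06), 3.39-fold and 3.22-fold. The other receptor genes Fgfr2 and Fgfr1 rose 2.50-fold and 1.66-fold, and the ligand gene Fgf9 rose 2.52-fold. The ETS factor genes Etv1 (2.38-fold) and Etv4 fell, as did Fgfrl1, encoding a receptor without a kinase. Fgf1 fell with the replicate block alone (edgeR adjusted p = 0.00462, against 0.239 without it). Etv5, also an ETS factor gene, rose 1.32-fold (edgeR adjusted p = 0.0433). Its call was lost with upper-quartile scaling and without CTRL 1, CTRL 3, CTRL 4, PTX 2, PTX 3 or both libraries numbered 1 (adjusted p up to 0.11). These genes are expressed by neurons and other cells too.

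Sox9, a transcription factor gene needed to specify glia, was at 21.4, 26, 33.6 and 33.7 CPM in CTRL and 18, 20.3, 26.5 and 27.9 CPM in PTX. The groups overlapped, but each pair gave a similar difference, from -0.25 to -0.36 on the log2 scale, so that Sox9 passed with the replicate block (log2 fold change -0.31, SE 0.08, edgeR adjusted p = 0.0038) and not without it (SE 0.18, adjusted p = 0.217).

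All 3 progenitor genes fell. Fabp7 encodes the brain lipid-binding protein of radial glia and young astrocytes, and Id3 and Id4 encode helix-loop-helix proteins that hold back differentiation and are targets of bone morphogenetic proteins (BMPs). Id3 (ENSMUSG00000007872, chromosome 4, 136143822 to 136145392) was at 55.5, 56.8, 62.8 and 61.0 CPM in CTRL and 21.1, 31.6, 29.7 and 40.4 CPM in PTX. The CTRL libraries were close together and all above the PTX libraries, and Id3 fell 1.92-fold (SE 0.16 on the log2 scale, edgeR adjusted p = 0.00133). Id4 (ENSMUSG00000021379, chromosome 13, 48261116 to 48266028) was at 64.7, 112, 120 and 130 CPM in CTRL and 28.5, 61.5, 53.2 and 79.9 CPM in PTX. The groups overlapped because CTRL 1 was low, and Id4 fell 1.91-fold (SE 0.30, edgeR adjusted p = 0.0305, 3.83e-07 with the replicate block). The unpaired Id4 call was lost without CTRL 2, CTRL 3, CTRL 4 or PTX 3, with an adjusted p of up to 0.0875. Fabp7 was at 898, 719, 692 and 527 CPM in CTRL and 375, 494, 512 and 496 CPM in PTX. It fell 1.51-fold (edgeR adjusted p = 0.0141), with a wide range over pairs from -1.26 in the pair numbered 1 to -0.09 in the pair numbered 4.

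The promoters of Id3 and Id4 are shown because both genes fell by nearly the same amount. RefSeq gives a window of 250 bases before to 50 after the start of each gene on GRCm38.p6, at chr4:136143572-136143871 and chr13:48260866-48261165, both on the plus strand. Capitals mark matches to searched motifs.
Id3: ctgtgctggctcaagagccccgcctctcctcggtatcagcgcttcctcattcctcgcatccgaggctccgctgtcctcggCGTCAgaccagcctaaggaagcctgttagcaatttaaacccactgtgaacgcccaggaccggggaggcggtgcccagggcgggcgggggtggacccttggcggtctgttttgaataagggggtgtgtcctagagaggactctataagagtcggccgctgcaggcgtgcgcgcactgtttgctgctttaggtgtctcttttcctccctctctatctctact
Id4: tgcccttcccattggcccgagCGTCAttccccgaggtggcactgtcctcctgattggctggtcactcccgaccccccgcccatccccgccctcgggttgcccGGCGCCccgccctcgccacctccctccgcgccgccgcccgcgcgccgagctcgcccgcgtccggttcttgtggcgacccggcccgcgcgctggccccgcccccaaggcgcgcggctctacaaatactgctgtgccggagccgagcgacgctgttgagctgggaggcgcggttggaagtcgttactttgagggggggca
Each window holds 1 copy of TGACG, the core of the cyclic AMP response element (CRE), on either strand, 170 bases before the start of Id3 and 229 before that of Id4, and Id4 also holds GGCGCC, a motif of BMP-responsive Smad binding, 148 bases before its start. TGACG occurs in 20.8% and GGCGCC in 11.9% of the 32851 windows of the table. Their GC content was 60% and 73.3%, against a median of 52.7%.

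Other genes of BMP signalling went in both directions. Of 19 tested, 6 rose and 2 fell, with a median log2 change of 0.16 and 42.1% called, near the general share. The median was 0.10 without CTRL 1 and 0.26 without PTX 1, and 5 genes were called without CTRL 2. With the replicate block 12 were called (63.2%, against 53.8% of all genes in that fit). Smad7, an inhibitor of Smad signalling, rose 4.11-fold (edgeR adjusted p = 5.04e-06), the ligand gene Bmp2 7.07-fold and the receptor gene Acvr1 2.12-fold. Id1 and Id2, relatives of Id3 and Id4, did not pass, with log2 fold changes of 0.00 (SE 0.26) and 0.16 (SE 0.10). The genes that fell were Smad9 (1.97-fold, edgeR adjusted p = 0.00599) and Chrd (1.34-fold, adjusted p = 0.0336). The Chrd call was lost with DESeq2, without the low-count filter and without both libraries numbered 1. It was also lost without any 1 of the CTRL libraries, PTX 1, PTX 3 or PTX 4 (adjusted p up to 0.133).

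The 5 reactive genes went in both directions. Cd44 (ENSMUSG00000005087, chromosome 2, 102811141 to 102901669) encodes the hyaluronan receptor, which fibroblasts and microglia also make. It was at 26.3, 45.0, 50.2 and 42.7 CPM in CTRL and 91.6, 125, 150 and 152 CPM in PTX. All PTX libraries lay above all CTRL libraries, and the libraries numbered 1 were lowest in both groups. Cd44 rose 3.16-fold (SE 0.21 on the log2 scale, edgeR adjusted p = 0.000209). Lcn2 (ENSMUSG00000026822, chromosome 2, 32384637 to 32387739) encodes the iron-carrier-binding lipocalin 2, a leading gene of reactive astrocytes. It was low, at 5.01, 11.6, 8.64 and 4.12 CPM in CTRL and 12.8, 19.6, 22.2 and 9.71 CPM in PTX. The groups overlapped in 1 library, PTX 4, but every pair was higher in PTX, by 0.75 to 1.36 on the log2 scale. Lcn2 rose 2.18-fold (SE 0.35, edgeR adjusted p = 0.0294, 2.96e-06 with the replicate block), a call lost without CTRL 1, CTRL 3, CTRL 4, PTX 2 or PTX 3 (adjusted p up to 0.0737).

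Steap4 (ENSMUSG00000012428, chromosome 5, 7960472 to 7982213), encoding a metalloreductase, went the other way. It was at 13.9, 23.6, 11.6 and 7.38 CPM in CTRL and 3.45, 6.84, 5.93 and 3.22 CPM in PTX, so the groups did not overlap. It fell 2.91-fold (log2 fold change -1.54, SE 0.37, edgeR adjusted p = 0.00759). Serpina3n, encoding a secreted protease inhibitor, was at 63.6, 122, 97.1 and 67.6 CPM in CTRL and 30.1, 95.2, 70.9 and 46.1 CPM in PTX. All 4 pairs were lower, and the gene passed only in the fit with the block (log2 fold change -0.60, SE 0.10, edgeR adjusted p = 0.000149, against 0.24 without it). Serpina3n has near-identical neighbours, so the assignment of its reads is uncertain. Cp, encoding the copper-carrying ferroxidase ceruloplasmin, which choroid plexus also makes, was at 324, 220, 193 and 238 CPM in CTRL and 272, 189, 211 and 192 CPM in PTX (edgeR adjusted p = 0.456), highest in both groups in the library numbered 1. Cp overlaps Hps3 in the annotation.

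**Figure D4:**
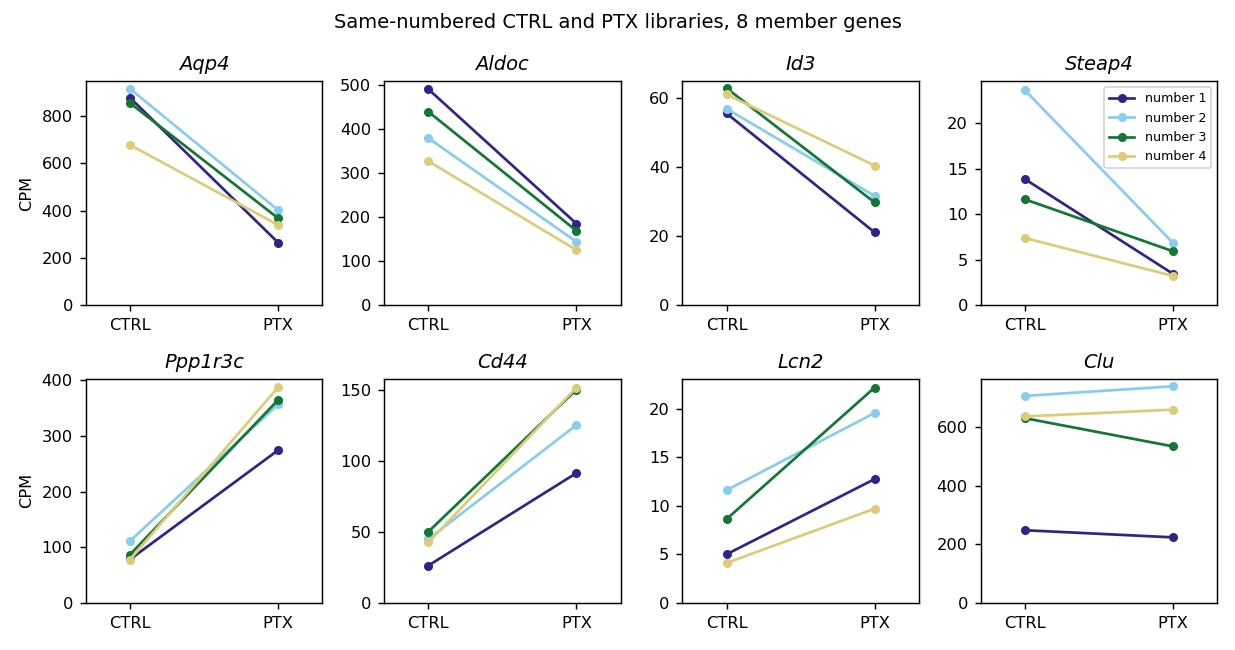
CPM of 8 of the genes in same-numbered CTRL and PTX libraries, joined by lines, on linear axes from 0. Aqp4, Aldoc, Id3 and Steap4 fall and Ppp1r3c, Cd44 and Lcn2 rise in 4 of 4 pairs, while Clu is set apart by library number and not by group.

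Other genes listed for reactive astrocytes rose more often than they fell. Of 29 tested genes 8 rose and 2 fell, with a median log2 change of 0.42 (34.5% called, under the general share). With the replicate block 16 rose and 5 fell (72.4% called, against 53.8% of all genes in that fit). Without both libraries numbered 1 the test called 18, and 6042 of 16056 genes over the whole fit. Ptx3, encoding pentraxin 3, rose 3.18-fold, the membrane protein gene Emp1 3.32-fold and Timp1, encoding a metalloprotease inhibitor, 2.91-fold (edgeR adjusted p = 0.000175, 0.000265 and 0.000693). Stat3, a transcription factor gene of the reactive response, and its feedback inhibitor gene Socs3 rose 1.53-fold and 2.00-fold. Amigo2, an adhesion protein gene, fell 2.53-fold and Iigp1, an interferon-inducible GTPase gene, 2.68-fold. The intermediate filament gene Vim did not pass, with 1280 ± 475 CPM without and 1617 ± 579 CPM under picrotoxin (SD, n = 4 each, edgeR adjusted p = 0.479), but rose with the replicate block (log2 fold change 0.35, adjusted p = 0.000375).

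Ppp1r3c had the largest change of the 30 genes. It encodes protein targeting to glycogen (PTG), which brings phosphatase 1 to glycogen and so favours glycogen synthesis. Ppp1r3c (ENSMUSG00000067279, chromosome 19, 36731731 to 36736604) was at 78.2, 111, 86.8 and 77.9 CPM in CTRL and 274, 357, 365 and 388 CPM in PTX. The groups lay far apart, and each pair rose by 1.68 to 2.31 on the log2 scale. The gene rose 3.90-fold (log2 fold change 1.97, SE 0.15, edgeR adjusted p = 7.68e-06). Aldh1a1, encoding an enzyme of retinoic acid synthesis, was at 6.19, 19.1, 18.7 and 13.9 CPM in CTRL and 6.38, 23.1, 20.5 and 20.0 CPM in PTX. The libraries numbered 1 were lowest in both groups, and the gene passed with the replicate block alone (log2 fold change 0.26, SE 0.10, edgeR adjusted p = 0.0468, against 0.646 without it).

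The promoter of Ppp1r3c is shown because the gene changed most. The RefSeq window on GRCm38.p6 lies at chr19:36736555-36736854 on the minus strand and is written along that strand.
Ppp1r3c: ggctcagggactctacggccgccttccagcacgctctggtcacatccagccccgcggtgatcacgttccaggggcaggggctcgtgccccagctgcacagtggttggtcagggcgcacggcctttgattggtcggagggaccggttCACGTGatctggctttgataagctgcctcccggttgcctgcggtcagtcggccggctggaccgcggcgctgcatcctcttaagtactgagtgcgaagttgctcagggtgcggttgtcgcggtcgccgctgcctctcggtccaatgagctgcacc
The capitals mark CACGTG, an E-box, 104 bases before the start, which 7.15% of all windows hold and no other window of a member. No match to the CRE (TGACGTCA, 1.79% of windows), AP-1 (TGANTCA, 7.81%) or STAT (TTCNNNGAA, 8.30%) motif lay in this window.

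Of 16 genes of glycogen and lactate handling, 7 rose, 3 fell and 6 did not pass (62.5% called, against 39.2% of all genes), with a median log2 change of 0.27. Gbe1, encoding the glycogen branching enzyme, rose 2.61-fold, Gys1, encoding glycogen synthase, 2.28-fold and Slc2a1, encoding the glucose transporter GLUT1, 2.32-fold (edgeR adjusted p = 0.000122, 0.000328 and 0.000538). Pygb, encoding brain glycogen phosphorylase, which breaks glycogen down, fell 1.63-fold from 472.8 ± 29.3 to 289.6 ± 54.5 CPM (SD, n = 4), and Ugp2, which makes the UDP-glucose for synthesis, fell 1.62-fold. The lactate transporter genes went in both directions. Slc16a1 and Slc16a3 rose 1.8-fold and 2.26-fold, Slc16a3 from a low level of 1.9 CPM. Slc16a7 fell 1.44-fold (edgeR adjusted p = 0.0332). That call was lost with RLE scaling and without CTRL 1, CTRL 3, PTX 2, PTX 3 or PTX 4 (adjusted p up to 0.138). Most of these genes are also expressed by neurons.

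A wider list of 50 astrocyte genes, all tested, also split. Of these 9 rose and 12 fell, 42.0% against 39.2% of all genes, with a median log2 change of -0.19 that was -0.03 without PTX 1. Rorb, a nuclear receptor gene, rose 7.56-fold from 23.8 ± 3.4 to 180.4 ± 28.2 CPM (SD, n = 4), Cbs, encoding cystathionine beta-synthase, 3.16-fold and Dio2, encoding the deiodinase that makes active thyroid hormone, 7.89-fold (edgeR adjusted p = 9.14e-07, 2.65e-06 and 1.4e-05). Slco1c1, a thyroid hormone transporter gene, rose 2.92-fold, and Megf10, a phagocytic receptor gene, 2.35-fold. Among the falls were the GABA transporter gene Slc6a11 (2.59-fold), the mitochondrial glutamate carrier gene Slc25a18 (2.16-fold), the Notch target gene Hes5 and Fam107a (4.79-fold). Sox2 and Kcnj10, the potassium channel gene of astrocyte endfeet, did not pass, with log2 fold changes of 0.01 (SE 0.19) and -0.11 (SE 0.23). Kcnj16, another potassium channel gene of the list, fell 1.96-fold (edgeR adjusted p = 0.00866). With the replicate block 12 of the 50 genes rose and 25 fell (74.0% called, against 53.8% of all genes in that fit).

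L3mbtl1 peaks lay near 5 of the 30 genes (Gja1, Id4, Cst3, Sox9 and Aldoc), counting peaks within 2000 bp of either end of a gene. That is 16.7%, against 17.8% of all protein-coding genes and 26.4% of those tested for expression. The peak score is the authors' own and ranks the 4677 peaks of the list. Gja1 had the highest-scoring peak of the 5 genes (score 16.9, rank 489), 2221 bp wide (chromosome 10, 56376989 to 56379209) and reaching from position -311 to position 1909 relative to the gene's start. Id4 had a peak across its start (score 14.2, rank 929, chromosome 13, 48261037 to 48261955) and a lower one inside the gene (score 8.57, rank 4308). The Cst3 peak (chromosome 2, 148875075 to 148875457, score 9.24) lay 55 to 437 bp inside the start, and both Sox9 peaks (scores 11.2 and 10.4) lay in the gene. The Aldoc peaks lay beyond the far end, 304 and 667 bp away, and also within 2000 bp of an end of its neighbour Pigs. Of these 5 genes, Aldoc and Id4 fell under picrotoxin, and Gja1, Cst3 and Sox9 passed with the replicate block alone, as lower. With that block 16 of the 30 members fell, and 28.7% of all genes. A link between peaks and these changes was not tested. Wild type and L3mbtl1-/- signal were not compared, as no values per ChIP-seq sample were analysed here.

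**Figure D5:**
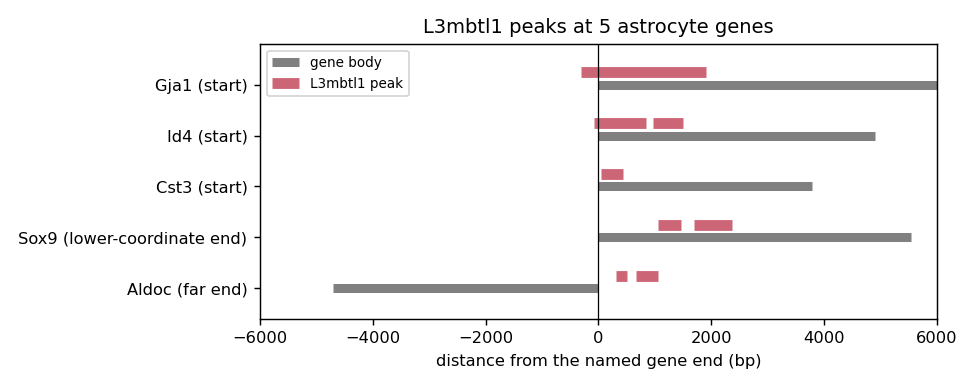
Position of L3mbtl1 peaks (red) relative to the named end of 5 genes (grey bars, cut at the edges of the plot), in bp, with positive distances running into Gja1, Id4, Cst3 and Sox9 and away from Aldoc. The peaks of Gja1 and Id4 cross the start, and those of Aldoc lie 304 and 667 bp outside the gene.

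The Gja1 promoter is shown because the whole of its 300 bases lay under the peak, while 129 bases of the Id4 window did. The RefSeq window on GRCm38.p6 lies at chr10:56377050-56377349 on the plus strand.
Gja1: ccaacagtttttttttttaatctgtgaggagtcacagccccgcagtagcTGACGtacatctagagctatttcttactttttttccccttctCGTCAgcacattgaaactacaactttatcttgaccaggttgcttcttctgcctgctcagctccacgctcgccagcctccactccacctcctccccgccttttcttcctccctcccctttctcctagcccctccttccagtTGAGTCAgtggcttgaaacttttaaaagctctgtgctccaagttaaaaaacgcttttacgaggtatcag
Capitals mark TGACG, on either strand, 201 and 159 bases before the start and an AP-1 motif (TGANTCA) 19 bases before it. AP-1 matches lay in 4 of the 24 members with a window (Gja1, Acsl6, Aldh1a1 and Cp), STAT matches in 3 (Acsbg1, Aldoc and Steap4), TGACG in 3 (Gja1, Id3 and Id4) and GGCGCC in 4 (Fgfr3, Id4, Ndrg2 and Slc4a4). Sox9, Sparcl1, Atp1b2, Clu, Aqp4 and Slc14a1 were without a window in the table. Such a match is a description of the sequence and not a binding site.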

How the data were processed

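For RNA-seq the authors deposited 1 table a library of unnormalised read counts by Ensembl gene. Each library took 15 ng of RNA freed of ribosomal RNA, per the labels' protocols. The submitters' processing notes name genome build mm10 and the tools Bowtie2 2.2.4, TopHat2 2.0.9, CASAVA 1.8 and HTSeq 0.6.1. Strand setting and annotation release: not given in the sources used here, so reads of overlapping genes cannot be told apart. Library sizes leave out the 5 summary lines of a table, which held 19.9% to 26.8% of alignments outside genes and 15.2% to 20.5% at non-unique positions. No library copied another (chi-square per degree of freedom at least 10.3 within groups).

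The authors deposited 1 peak list, with a score per peak, that covers the ChIP-seq samples jointly. Its caller, its threshold and what the score means were not given in the sources used here. Positions came from RefSeq (GRCm38.p6), and a peak counted with 1 bp of overlap.

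All genes were fitted with edgeR 4.0.16 in R 4.3.3 (quasi-likelihood F test, TMM, filterByExpr, group as the only term), with Benjamini-Hochberg adjustment over 15959 genes. The code was tested on simulated data. The SE is the log2 fold change divided by the square root of F. The series' design text calls the samples biological replicates. Same-numbered libraries deviated together from their group means over the tested genes, with correlations of 0.796, 0.593, 0.18 and 0.681 for numbers 1 to 4. The fit with the replicate block is therefore given where it changes a call. CTRL 3 correlated more with PTX 4 (0.229), and slightly more with PTX 2 (0.183), than with PTX 3. The pairing rests on these data and not on the labels. DESeq2 1.42.0 and other scalings were alternatives. The members and lists were chosen with earlier results of these data known. All 30 members are named; of each other list the 3 genes with the smallest p were named by rule, and further ones after their values were seen.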

Additional observations from a re-analysis of the deposited data

Results flagged for a closer look

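In 60 groups of 4 libraries (30 genes in CTRL and in PTX), 3 held a library set apart from the other 3 by a gap past Dixon's 95% limit for its share of the group's range. Chance flags about 1 in 20 groups. Mlc1 was at 255.2 CPM in CTRL 1, with a gap of 0.906 of the range. Clu was at 248.1 CPM in CTRL 1, with a gap of 0.834. Fabp7 was at 374.6 CPM in PTX 1, with a gap of 0.87. All 3 were libraries numbered 1, in which the meningeal fibroblast markers were high and the microglia markers low in both groups; their part in these levels was not tested.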

How the results depend on the processing

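Counts of called genes held their size under most alternatives. Of 30 member genes 14 were called, 14 with DESeq2, with RLE or upper-quartile scaling, without the low-count filter and without both libraries numbered 1, 11 to 14 with 1 library left out, and 21 with the replicate block. Of the homeostatic genes 7 were called, 6 to 8 with 1 library left out, and 12 with the replicate block. Of the reactive genes 3 were called, 2 to 3 with 1 library left out, and 4 with the block. The calls of 10 members held in all 14 alternatives, and those of Fgfr3, Slc14a1, Id4 and Lcn2 were lost in 1 to 5 of them. The block also took the wider astrocyte list from 21 to 37 calls and the other reactive genes from 10 to 21. Over all genes the share called went from 39.2% to 53.8% with the block. Without both libraries numbered 1, an alternative chosen after seeing the data, the other reactive genes gave 18 calls, and the BMP genes gave 5 in place of 8 without CTRL 2 and 12 with the block. Directions turned in 5 uncalled genes alone. With 1 library left out, the log2 fold change ranged from -0.16 to 0.19 for Mlc1 (0.02 without both libraries numbered 1), from -0.25 to 0.25 for Clu (0.01 without both), from -0.73 to 0.21 for Slc7a10, from -0.18 to 0.03 for Sparcl1 and from -0.27 to 0.04 for Cp; the cause was not tested. Peaks lay near 4 members in a narrower window or among the higher-scoring peaks, and near 5 in a wider window or by peak midpoint. Genes with few reads, Gjb6 and Slc7a10, are limited by depth.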

Other observations

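Apart from treatment, the libraries numbered 1 differed from the others in many of the astrocyte genes. In 12 of the 30 genes both CTRL 1 and PTX 1 were the lowest of their group. The same count was not made over all tested genes, over which CTRL 1 and PTX 1 also deviated together (correlation 0.796). Clu stood at 0.377 of the mean of the other CTRL libraries and 0.347 of the mean of the other PTX libraries, Aldh1a1 at 0.36 and 0.301, and Id4 at 0.537 and 0.439. Cp went the other way, at 1.49 and 1.38, as did Aldoc at 1.28 and 1.27 and Gjb6, on few reads, at 1.74 and 2.48. Fabp7 was above the other CTRL libraries in CTRL 1 (1.39) and below the other PTX libraries in PTX 1 (0.749). These ratios are values of single libraries without a test.

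Among 7 markers of oligodendrocyte precursors 6 had a positive log2 fold change, with a median of 0.38. Vcan alone rose without pairing (edgeR adjusted p = 0.0331), 14.3% of these markers against 19.0% of all tested genes called as higher. With the replicate block 5 of 7 rose (71.4%, against 25.1% of all genes in that fit). Pdgfra, the receptor gene that marks the precursors, averaged 236.2 ± 74.7 CPM without and 268.5 ± 95.0 CPM with picrotoxin (SD, n = 4 each, edgeR adjusted p = 0.675, and 0.0466 with the replicate block).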
